A study of Homo sapiens with 12 samples.

Results

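The 8 genes described here encode the signalling chains of the B cell receptor and the enzymes and linker that carry its signal inward: CD79A, CD79B, LYN, SYK, BLNK, BTK, PLCG2 and PRKCB. They were taken by symbol from a table of 20318 gene entries, in which each of them has 1 entry, and all 8 passed the filter on low values that kept 12722 entries. The cells were Z138, an established human line from a mantle cell lymphoma, a cancer of mature B cells, with the genotype given as wild type in every group. They were kept for 8 h or 24 h with 0.5 µM AU-15330 or with DMSO, the solvent that serves as the control. AU-15330 is a proteolysis-targeting chimera, a molecule that directs a cell's own ubiquitin system to destroy chosen proteins, here SMARCA2 and SMARCA4, the ATPase motors of the BAF family of chromatin remodellers, together with PBRM1, which belongs to PBAF. The labels name 3 samples in each of the 4 groups, but the table held 11 different libraries, with 2 for DMSO at 8 h and 3 for each other group. All results come from this 1 cell line, and the labels do not say that replicates were separate cultures, so every p-value rests on how much these libraries vary, and that variation may be only technical.

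CD79A and CD79B pair beside the membrane immunoglobulin that binds antigen and carry the tyrosine motifs that start signalling. LYN, a SRC family kinase, phosphorylates those motifs, SYK binds to them and becomes active, and SYK then phosphorylates the linker BLNK, on which BTK and PLCG2 meet. BTK activates the phospholipase PLCG2, whose products release calcium and activate the kinase PRKCB, which leads to NF-kappaB. Mantle cell lymphomas often depend on this pathway, and inhibitors of BTK are used to treat them.

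Levels below are normalised counts, in which 59.4 equal 1 CPM, the usual level scaled to the size of the library. A log2 change is a difference of means of log2(normalised count + 60) with its standard error, and its adjusted p comes from limma on the deposited values, over all 12722 genes with a threshold of 0.05. The estimated totals of the libraries were 50765418 to 67572111 counts. B cell identity of the line was checked on 6 markers, among which MS4A1 (CD20) stood at 176 to 624 CPM and CD74 at 1800 to 3090 CPM in the 11 libraries, while CD22 reached 0 CPM in at least 1 library. Of these 6 markers 5 were lower and 1, CD37, was higher under AU-15330 at both times. All 6 thus passed, beside 44.2% of all tested genes at 8 h and 50.9% at 24 h. CCND1, the cyclin activated in mantle cell lymphoma, was at 2470 to 2850 CPM. Among markers of other cell types, CD3D stayed at or below 0.196 CPM, NCAM1 at or below 0.0859 and CD14 at or below 0.144, whereas 2 of 4 T cell markers, CD3G (1.29 to 12.5 CPM) and CD247 (16.8 to 21.6 CPM), and 1 of 5 NK cell markers, PRF1 (0.232 to 4.25 CPM), passed the filter and were lower with the compound at both times. Plasma cell markers were present in all libraries, JCHAIN at 980 to 2310 CPM, and of 4 such markers PRDM1 rose and JCHAIN and TNFRSF17 fell at both times. The part of these marker changes in the results below was not tested.

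Promoters of CD79A, SYK, BLNK, BTK, PLCG2 and PRKCB, 6 of the 8 genes, were taken from RefSeq (GRCh38.p14) at 9 start sites, and those of CD79B and LYN are not analysed here. The bases before the first annotated exon are printed, 5′ to 3′ on the gene's strand, for BTK, the gene with the greatest fall of the 8, and for BLNK and PRKCB, the pair with more RNA under AU-15330 at 8 h. The stretches are chrX:101390797-101391046 on the minus strand for BTK, chr10:96271588-96271819 on the minus strand for BLNK and chr16:23835733-23835945 on the plus strand for PRKCB. Capitals mark matches to the motifs searched.
BTK promoter: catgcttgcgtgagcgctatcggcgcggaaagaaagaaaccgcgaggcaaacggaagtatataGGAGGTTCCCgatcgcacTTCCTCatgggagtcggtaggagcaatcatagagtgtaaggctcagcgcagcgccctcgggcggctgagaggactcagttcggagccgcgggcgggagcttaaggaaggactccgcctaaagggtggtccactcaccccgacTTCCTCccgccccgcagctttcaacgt
BLNK promoter: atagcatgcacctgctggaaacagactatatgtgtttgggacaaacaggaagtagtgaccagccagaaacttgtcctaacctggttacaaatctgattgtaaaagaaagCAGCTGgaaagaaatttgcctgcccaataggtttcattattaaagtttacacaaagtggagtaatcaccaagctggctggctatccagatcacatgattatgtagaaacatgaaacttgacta
PRKCB promoter: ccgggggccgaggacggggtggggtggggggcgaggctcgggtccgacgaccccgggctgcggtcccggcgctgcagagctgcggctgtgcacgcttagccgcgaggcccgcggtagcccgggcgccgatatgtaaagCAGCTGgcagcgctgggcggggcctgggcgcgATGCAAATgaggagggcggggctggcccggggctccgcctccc
Motifs were searched on both strands in the 250 bases before each start. They were GAGGAA (an ETS core as PU.1 prefers it, in 23.6% of 35116 RefSeq promoters), ATTTGCAT (the octamer bound by POU factors, 1.6%), an EBF motif (TCCC and GGGA with any 2 bases between, 1.1%), CAGCTG (an E box bound by E2A, 14.0%), an NF-kappaB motif (GGGA and CC with any 4 bases between, 22.6%) and TATAAA (the TATA box, 10.7%). In the BTK sequence the capitals are a match to the NF-kappaB motif read on the opposite strand, GGAGGTTCCC, at 187 to 178 bases before the start, and TTCCTC, which is GAGGAA on the opposite strand, at 169 to 164 and at 27 to 22 bases. The BLNK sequence holds CAGCTG at 141 to 136 bases. The PRKCB sequence holds CAGCTG at 112 to 107 bases and the octamer, read as ATGCAAAT, at 80 to 73 bases, and another CAGCTG at 30 to 25 bases lies beyond the printed stretch. In the unprinted windows, SYK had GAGGAA at 82 to 77 and 32 to 27 bases before its listed start 2 and at 47 to 42 before start 3, PLCG2 had CAGCTG at 175 to 170, and CD79A had an NF-kappaB match at 129 to 120. No window of these genes held the EBF motif or TATAAA in these letters. Neither start 1 of SYK nor start 2 of BTK held any of the 6 motifs. RNA of the B cell factors that bind such motifs also differed between the groups. SPI1, which encodes PU.1, changed by -2.28 at 8 h and -2.91 at 24 h on the log2 scale, POU2AF1, the B cell coactivator of octamer factors, by -0.29 and -1.45, and TCF3, which encodes E2A, by -0.16 and -0.76. Of 13 listed B cell transcription factors, not all of which bind these motifs, 3 rose and 8 fell at 8 h, and 2 rose and 9 fell at 24 h. That is 84.6% at each time, beside 44.2% of all tested genes at 8 h and 50.9% at 24 h. Factors of the same motif families went opposite ways: SPIB, an ETS factor close to PU.1, rose by 1.82 and 1.41, from 10160 to 36190 normalised counts at 8 h and from 17110 to 45480 at 24 h, and POU2F2, an octamer factor, rose by 0.58 and 0.60. This pair was chosen after its values were seen.

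At 8 h AU-15330 lowered CD79B, BTK, LYN and SYK and raised BLNK and PRKCB, and at 24 h it lowered those 4 together with CD79A and PLCG2 and raised BLNK alone. At 8 h, then, 6 of the 8 genes passed the test, 4 lower and 2 higher, beside 44.2% of all tested genes in either direction (21.4% lower, 22.9% higher). At 24 h 7 of the 8 passed, 6 lower and 1 higher, beside 50.9% of all tested genes (26.2% lower, 24.7% higher). The median log2 change of the 8 genes was -0.415 at 8 h and -0.882 at 24 h, and that of all tested genes was 0.0198 and 0.00876. Libraries of treated and control cells did not overlap for 6 of the 8 genes at 8 h (62.5% of all tested genes, 29.3% lower and 33.2% higher) and for 7 of the 8 at 24 h (59%, 29.6% lower and 29.4% higher). In RNA from whole cultures, fewer cells with a given programme and less RNA per cell cannot be told apart. The plot of normalised counts by library shows the separation gene by gene.

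**Figure D1:**
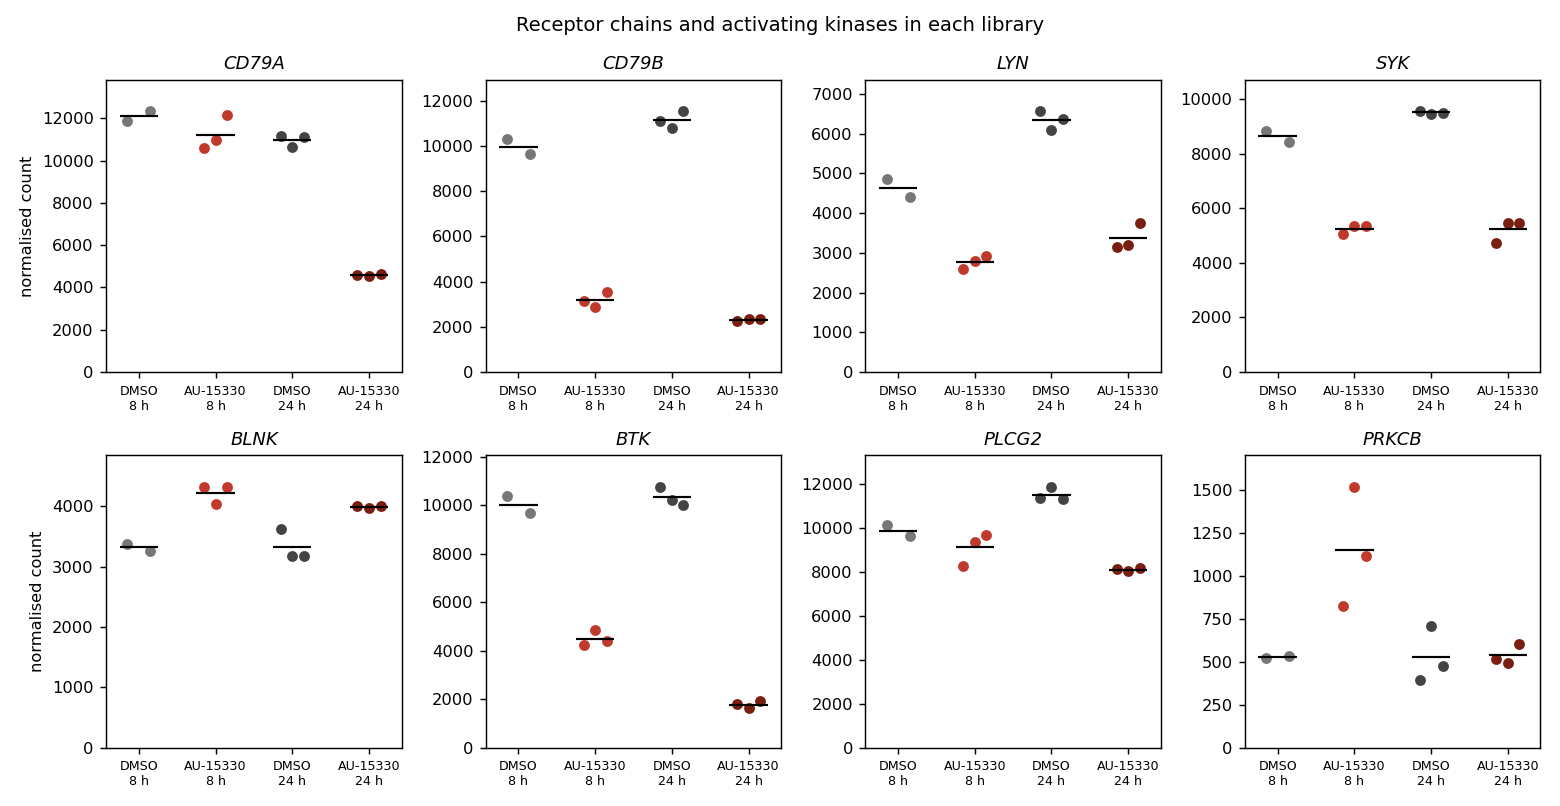
Normalised count (vertical axis, linear, from 0) of each of the 8 genes in the 4 groups (horizontal axis); points are libraries and bars are group means (n = 2 for DMSO at 8 h and 3 elsewhere). CD79B, LYN, SYK and BTK (lower) and BLNK (higher) are separated from DMSO at both times, and CD79A and PLCG2 at 24 h. PRKCB is separated at 8 h, where the 3 treated libraries are spread from 821.7 to 1517.

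CD79A encodes the Ig-alpha chain of the receptor (ENSG00000105369.10, chr19:41877120-41881372, plus strand, GRCh38). Its 8 h DMSO libraries held 11860 and 12340 normalised counts, and the AU-15330 libraries of that time held 10580, 10960 and 12150. After 24 h the controls held 11140, 10640 and 11100 and the treated libraries 4586, 4553 and 4638. The groups overlapped at 8 h, where treated library 3 lay between the controls, and were far apart at 24 h. The log2 change was -0.11 ± 0.0534 at 8 h (limma adjusted p = 0.116) and -1.24 ± 0.0478 at 24 h (limma adjusted p = 6.14e-09), which left 41.9% of the DMSO mean. Without AU-15330 replicate 3 at 8 h the 8 h difference passed the threshold (adjusted p = 0.0087). By level, DMSO at 8 h (12100 ± 340, SD, n = 2), AU-15330 at 8 h (11230 ± 819, n = 3) and DMSO at 24 h (10960 ± 279, n = 3) stood above AU-15330 at 24 h (4592 ± 43.1, n = 3), and neighbours among the first 3 overlapped.

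CD79B encodes Ig-beta, the partner of CD79A (ENSG00000007312.13, chr17:63928740-63932354, minus strand), and its exons overlap those of AC127029.3 on the same strand. It had 10290 and 9631 normalised counts in the 8 h controls against 3146, 2863 and 3542 under AU-15330. At 24 h the control values were 11080, 10810 and 11540 and the treated values 2244, 2366 and 2354. Every treated library was below every control at both times, with 32.0% of the DMSO mean left at 8 h and 20.8% at 24 h. CD79B changed by -1.63 ± 0.0743 at 8 h (limma adjusted p = 2.03e-08) and -2.23 ± 0.0665 at 24 h (limma adjusted p = 3.75e-10) on the log2 scale. The 8 h fall was the largest among the 8 genes. The order of levels ran from DMSO at 24 h (11150 ± 371) and DMSO at 8 h (9959 ± 463) to AU-15330 at 8 h (3184 ± 341) and AU-15330 at 24 h (2322 ± 67.4).

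The receptor's antigen-binding part is the membrane immunoglobulin that CD79A and CD79B accompany. Of its 9 listed constant region genes 5 were tested, and 1 rose and 4 fell at each time. All 5 thus passed, beside 44.2% of all tested genes at 8 h and 50.9% at 24 h. IGHM, the mu heavy chain, changed by -0.22 at 8 h and -0.62 at 24 h on the log2 scale. IGHD, the delta heavy chain, changed by -0.34 and -0.64. Among the lambda light chains IGLC1 rose by 0.52 and 0.57, and IGLC2 changed by -2.10 and -2.49. The IGLC copies are near-identical and can share reads, and IGHM and IGHD each have 2 entries in the table, so these values are uncertain.

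LYN, the SRC family kinase that phosphorylates the CD79 chains and can also act on inhibitory receptors, is ENSG00000254087.8 on chromosome 8. Its normalised counts were 4870 and 4398 in the 8 h controls and 2596, 2792 and 2909 with the compound. At 24 h they were 6568, 6095 and 6358 in DMSO and 3159, 3200 and 3741 in AU-15330. Treated and control libraries did not overlap at either time, and the 24 h controls were higher than the 8 h controls. LYN changed by -0.73 ± 0.0788 at 8 h (limma adjusted p = 2.53e-05) and -0.90 ± 0.0705 at 24 h (limma adjusted p = 6.76e-07), to 59.7% and 53.1% of DMSO.

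SYK is the kinase that docks on the phosphorylated CD79 chains (ENSG00000165025.15, chr9:90801787-90898549, plus strand). It had 8838 and 8440 normalised counts in the 8 h controls and 5057, 5355 and 5353 in the treated libraries. The 24 h controls had 9557, 9467 and 9491 and the treated libraries 4728, 5471 and 5464. The range of the treated libraries at 24 h enclosed that at 8 h, and all 6 lay below all 5 controls. SYK changed by -0.71 ± 0.0606 at 8 h (limma adjusted p = 2.91e-06) and -0.86 ± 0.0542 at 24 h (limma adjusted p = 1.32e-07), to 60.8% and 54.9% of DMSO. In level, AU-15330 at 8 h (5255 ± 172) and at 24 h (5221 ± 427) did not differ beyond their spread.

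BLNK is the linker that gathers BTK and PLCG2 once SYK has phosphorylated it (ENSG00000095585.17, chr10:96191702-96271587, minus strand). Its exons overlap those of ZNF518A on the opposite strand, and the labels do not say whether strand was used in counting. It had 3376 and 3261 normalised counts in the 8 h controls and 4321, 4034 and 4325 with AU-15330. At 24 h the controls had 3627, 3178 and 3179 and the treated libraries 4002, 3969 and 4000. All 6 treated libraries were above all 5 controls. BLNK rose by 0.34 ± 0.0608 at 8 h (limma adjusted p = 0.000779) and by 0.26 ± 0.0544 at 24 h (limma adjusted p = 0.00199), to 127% and 120% of DMSO. It was the gene of the 8 with a rise at both times.

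BTK is the TEC family kinase that activates PLCG2 (ENSG00000010671.16, chrX:101349447-101390796, minus strand). In the 8 h controls it had 10360 and 9694 normalised counts, and in the treated libraries 4249, 4841 and 4388. The 24 h controls had 10760, 10230 and 10020, and the treated libraries 1794, 1641 and 1907. The 3 levels, controls of either time, AU-15330 at 8 h and AU-15330 at 24 h, did not overlap. BTK changed by -1.15 ± 0.0706 at 8 h (limma adjusted p = 1.17e-07) and -2.50 ± 0.0632 at 24 h (limma adjusted p = 2.07e-10). It kept 44.8% of the DMSO mean at 8 h and 17.2% at 24 h, the lowest share of the 8 genes at that time.

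PLCG2 is the phospholipase downstream of BTK and BLNK (ENSG00000197943.10, chr16:81739097-81962693, plus strand), and its exons overlap AC099524.1 and RN7SKP176 on the same strand. At 8 h it had 10100 and 9624 normalised counts in DMSO and 8280, 9366 and 9657 in AU-15330. At 24 h it had 11350, 11860 and 11290 in DMSO and 8115, 8023 and 8149 in AU-15330. The 8 h groups overlapped by 1 treated library, and the 24 h groups were apart. The log2 change was -0.12 ± 0.0579 at 8 h (limma adjusted p = 0.122) and -0.50 ± 0.0518 at 24 h (limma adjusted p = 1.01e-05), which left 70.4% of DMSO. Without AU-15330 replicate 3 at 8 h, the library above 1 of the controls, the 8 h difference passed (adjusted p = 0.0468).

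PRKCB, protein kinase C beta, relays the signal of PLCG2 towards NF-kappaB (ENSG00000166501.14, chr16:23835946-24220611, plus strand). It had 521.6 and 532.1 normalised counts in the 8 h controls and 821.7, 1517 and 1112 with AU-15330. At 24 h it had 393.2, 708.1 and 474.7 in DMSO and 515.4, 494.7 and 600.5 in AU-15330. The treated libraries were all higher at 8 h but differed widely among themselves, and the groups overlapped at 24 h. PRKCB rose by 1.00 ± 0.237 at 8 h (limma adjusted p = 0.00514), and its log2 change at 24 h was 0.06 ± 0.212 (limma adjusted p = 0.888). Its standard error was the largest of the 8 genes at both times. With any single library left out, the 8 h adjusted p ranged from 0.000991 to 0.0343.

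**Figure D2:**
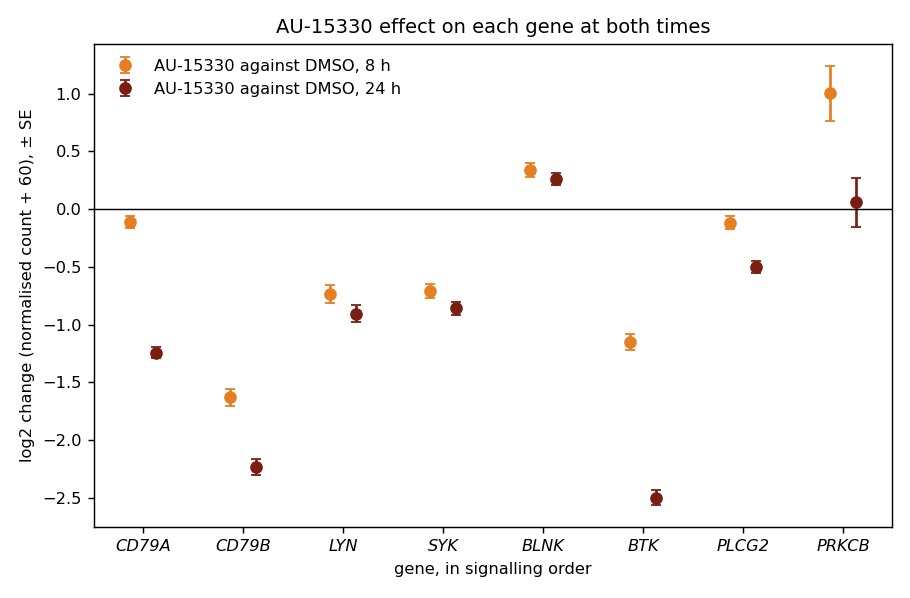
Log2 change under AU-15330 against DMSO (vertical axis, log2 of normalised count + 60, points with standard errors) for the 8 genes in signalling order (horizontal axis) at 8 h and 24 h. CD79A, CD79B, BTK and PLCG2 lie lower at 24 h than at 8 h, from -1.24 against -0.11 for CD79A to -0.50 against -0.12 for PLCG2.

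The effect of the compound differed between the times for CD79A, CD79B, BTK and PLCG2, each of which was lower relative to DMSO at 24 h than at 8 h. This difference of effects passed limma's test in 4 of the 8 genes, all 4 in the lower direction, beside 18.5% of all tested genes (11% lower, 7.54% higher). It was -1.35 ± 0.0948 for BTK (limma adjusted p = 1.87e-05) and -1.13 ± 0.0716 for CD79A (limma adjusted p = 1.06e-05), and smaller for CD79B, -0.60 ± 0.0997 (limma adjusted p = 0.00248), and PLCG2, -0.39 ± 0.0776 (limma adjusted p = 0.00634). LYN, SYK and BLNK had differences of -0.17, -0.15 and -0.08 that did not pass (limma adjusted p = 0.154, 0.195 and 0.516), and for LYN the difference passed without AU-15330 replicate 3 at 24 h (adjusted p = 0.0371). For PRKCB the difference was -0.94 ± 0.318 (limma adjusted p = 0.0577), and it passed without DMSO replicate 1 at 24 h (adjusted p = 0.0457) and without AU-15330 replicate 1 at 8 h (adjusted p = 0.0156). The labels give the time as the batch, so that time and batch cannot be told apart here, while each comparison of AU-15330 with DMSO lies within a batch.

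In DMSO alone, LYN and PLCG2 were higher at 24 h than at 8 h, so that 2 of the 8 genes passed, both higher, beside 10.1% of all tested genes (6.56% higher, 3.56% lower). LYN rose by 0.45 ± 0.0788 (limma adjusted p = 0.00285) and PLCG2 by 0.22 ± 0.0579 (limma adjusted p = 0.0324). The PLCG2 call was lost without any 1 of the 5 DMSO libraries, with adjusted p from 0.0594 to 0.182. For the other 6 genes the log2 change ran from -0.14 for CD79A (limma adjusted p = 0.118) to 0.16 for CD79B (limma adjusted p = 0.12), and none passed. This comparison shares its control libraries with the treatment comparisons and crosses the batches.

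Because the members changed by different amounts, the balance between signalling partners shifted within libraries. The log2 ratio of CD79A to CD79B, the chains of 1 heterodimer, was 0.20 and 0.36 in the 8 h controls and 1.73, 1.91 and 1.76 with AU-15330. At 24 h it was 0.01, -0.02 and -0.06 in DMSO and 1.01, 0.93 and 0.96 in AU-15330. All treated libraries were above all controls, and the shift was 1.522 at 8 h and 0.9901 at 24 h. Over both times the mean shift was 1.256 (exact 2-sided permutation test of labels within time, p = 0.005, adjusted over 5 pairs p = 0.00625). With 200 relabellings, 0.005 is the smallest p this test can give.

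BTK lost RNA relative to PLCG2, its substrate. The log2 ratio of BTK to PLCG2 was 0.04 and 0.01 in DMSO at 8 h against -0.95, -0.94 and -1.13 in AU-15330. At 24 h the DMSO values were -0.08, -0.21 and -0.17 and the treated values -2.14, -2.25 and -2.06. The mean shift was -1.514 (exact 2-sided permutation p = 0.005, adjusted p = 0.00625), with -1.031 at 8 h and -1.996 at 24 h.

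SYK lost RNA relative to BLNK, which it phosphorylates, by a mean of -1.087 (exact permutation p = 0.005, adjusted p = 0.00625), with -1.054 at 8 h and -1.12 at 24 h. The log2 ratio lay between 1.36 and 1.56 in the 5 controls and between 0.22 and 0.46 in the 6 treated libraries. For PLCG2 to PRKCB the mean shift was -0.8427 (exact permutation p = 0.005, adjusted p = 0.00625), with -1.122 at 8 h and -0.564 at 24 h. At 8 h its controls lay at 4.13 and 4.03 and its treated libraries at 3.24, 2.58 and 3.05.

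LYN and SYK, which act one after the other on the CD79 chains, were the pair whose ratio was not shown to shift. The mean difference was -0.03289 (exact permutation p = 0.48), with group means of -0.8915 and -0.9127 in DMSO and AU-15330 at 8 h and -0.5803 and -0.6249 at 24 h. The ratio was higher in both groups at 24 h than in either group at 8 h. With 1 library left out at a time, the mean difference ranged from -0.05423 to 0.001519.

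**Figure D3:**
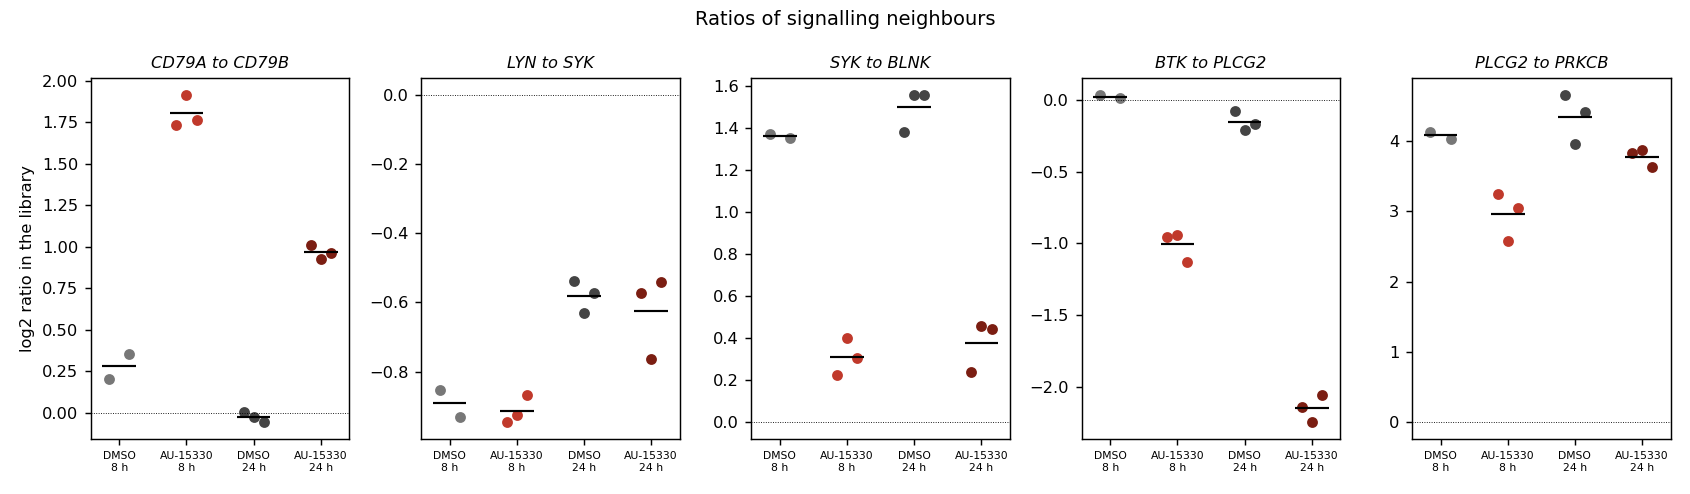
Log2 ratio of normalised counts (vertical axes) for 5 pairs of signalling neighbours in the 4 groups (horizontal axes); each point is a library and bars are group means. The treated libraries stand apart from DMSO for CD79A to CD79B (1.73 to 1.91 against 0.20 to 0.36 at 8 h), SYK to BLNK and BTK to PLCG2, while those of LYN to SYK overlap with DMSO.

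Per kilobase of the longest coding transcript, the receptor chains were the most abundant of the 8 in DMSO at 8 h, with 9620 normalised counts per kilobase for CD79A and 7850 for CD79B. BTK followed at 3620, BLNK at 1860, SYK at 1730, PLCG2 at 1130, LYN at 798 and PRKCB at 65.8. In AU-15330 at 24 h CD79A remained first at 3650 per kilobase, and BLNK, at 2240, stood above CD79B, at 1830. SYK was at 1040, PLCG2 at 930, BTK at 644, LYN at 580 and PRKCB at 67.0. BTK thus moved from directly behind the receptor chains to below PLCG2. Which isoform the cells used is not known from these values, so this order is a description.

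Over the 11 libraries, members differed in how alike their profiles were. After centring each gene on its mean, the root mean square difference in log2(normalised count + 60) was smallest between LYN and SYK (0.163) and between SYK and PLCG2 (0.249), and it was 0.347 between CD79B and BTK. It was 0.72 between CD79A and CD79B, and greatest between CD79B and PRKCB (1.29). These distances depend on how much each gene varied. The root mean square of a gene around its own mean was 0.199 for PLCG2, 0.405 for SYK, 0.472 for LYN and 0.988 for CD79B. PLCG2 was thus further from SYK than from a flat profile, whereas CD79B and BTK were close for how much they varied. The tested genes closest to BTK, whose own root mean square around its mean was 1.03, were CD3G (0.134), PYGM (0.172) and PDGFA (0.175). For CD79B they were PSD4 (0.116), SLC2A6 (0.125) and LPXN (0.132), and for CD79A PRR5 (0.097), SH2B2 (0.115) and ACTL8 (0.129). For LYN they were BLK (0.095), GUCD1 (0.0956) and PHC1 (0.103), and for SYK RAB8B (0.053), LAMP2 (0.0597) and TRIM44 (0.0678). PLCG2 was closest to IGHV1OR15-6 (0.0484), IQGAP2 (0.0629) and MBD2 (0.0679), BLNK to CREB3 (0.043), GART (0.0516) and ERMP1 (0.0522), and PRKCB to ZCCHC2 (0.244), IRS1 (0.244) and ZNF774 (0.253). The nearest genes to PRKCB, whose own root mean square was 0.516, were thus about as far from it as SYK was from PLCG2. All 11 libraries share the same 4 groups, so likeness is not independent of the group differences above and is given without a test.

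Relatives of the members were examined for RNA that could stand beside them. Of 8 tested SRC family kinases other than LYN, none rose at either time, 3 fell at 8 h and 4 at 24 h, shares of 37.5% and 50.0% that are not above those of all tested genes (44.2% and 50.9%). Without AU-15330 replicate 2 at 8 h the 8 h count of falls was 5, while without DMSO replicate 1 at 24 h 1 kinase rose at 24 h. LCK changed by -2.53 and -3.23 on the log2 scale at 8 h and 24 h, FGR by -2.00 and -2.74, and BLK, the SRC kinase named for B lymphoid cells, by -0.79 and -1.02. FRK had -0.27 at 8 h (limma adjusted p = 0.0524) and changed by -0.31 at 24 h. YES1 had 0.01 and 0.09 (limma adjusted p = 0.979 and 0.613) and FYN -0.22 and 0.50 (limma adjusted p = 0.716 and 0.259). ZAP70, the relative of SYK in T cells, reached at most 0.0827 CPM, and LCP2 and CLNK, the relatives of BLNK, at most 0.368 and 0.164 CPM.

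TEC, the tested relative of BTK, changed by -1.42 at 8 h and -1.0 at 24 h. PLCG1, the close relative of PLCG2, changed by -0.65 at 8 h and had -0.01 at 24 h (limma adjusted p = 0.894), so that its effect at 24 h minus that at 8 h was 0.64 (limma adjusted p = 0.00482), opposite in sign to the difference for PLCG2. Of 6 tested relatives of PRKCB in the protein kinase C family none rose, 4 fell at 8 h and 5 at 24 h (66.7% and 83.3%, beside 44.2% and 50.9% of all tested genes). PRKCA changed by -0.24 and -0.83, and its 8 h call was lost without DMSO replicate 1 at 8 h (adjusted p = 0.173). PRKCD changed by -0.45 and -0.67 and PRKCZ by -0.83 at both times. PRKCE had -0.21 at 8 h (limma adjusted p = 0.22) and changed by -1.18 at 24 h. PRKCI had 0.00 and 0.06, and did not pass.

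The activating genes beside the 8, 93 in 7 lists, had 87 tested, of which 20 rose and 33 fell at 8 h, 60.9% in all beside 44.2% of all tested genes, and 17 rose and 42 fell at 24 h, 67.8% beside 50.9%. Their median log2 change was -0.0656 at 8 h and -0.119 at 24 h, beside -0.415 and -0.882 for the 8 genes. Coreceptors, which lower the threshold of the receptor, had 6 tested members, and 5 fell and none rose at each time. That is 83.3%, beside 44.2% of all tested genes at 8 h and 50.9% at 24 h. CD81, a tetraspanin of the coreceptor complex, changed by -0.94 and -2.03 on the log2 scale, CD38 by -2.16 and -3.02, and TNFRSF13C, the BAFF receptor, by -1.74 and -1.54. Without AU-15330 replicate 1 at 8 h or replicate 3 at 24 h, 1 coreceptor also passed as higher at 8 h.

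Adaptors and exchange factors that work beside BLNK had 18 tested members. At 8 h 2 rose and 8 fell (55.6%, beside 44.2% of all tested genes), and at 24 h 1 rose and 10 fell (61.1%, beside 50.9%). DAPP1 changed by -1.09 and -1.77, DOK3 by -2.15 and -1.60, VAV2, an exchange factor of RAC, by -0.62 and -0.94, and HCLS1 by -0.18 and -0.32. The count of 2 at 8 h was 1 without any of AU-15330 replicates 2 and 3 at 8 h, the 3 AU-15330 replicates at 24 h, DMSO replicate 2 at 24 h and either DMSO replicate at 8 h, and the count of 1 at 24 h was 2 without AU-15330 replicate 3 at 24 h.

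In the PI3K and AKT arm 4 of 14 tested genes rose and 6 fell at 8 h, and 3 rose and 7 fell at 24 h, 71.4% at each time beside 44.2% and 50.9% of all tested genes. PIK3CD, the catalytic subunit favoured in lymphocytes, changed by -0.58 and -1.46, PIK3CG by -0.59 and -1.06 and FOXO1 by -0.36 and -0.92. Without DMSO replicate 1 at 8 h, the 8 h count of rises was 2.

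Downstream of PLCG2, the calcium and NFAT arm had 17 tested genes, of which 5 rose and 3 fell at 8 h (47.1%, near the 44.2% of all tested genes) and 4 rose and 7 fell at 24 h (64.7%, beside 50.9%). ITPR3, a receptor of the second messenger IP3, changed by -0.83 and -0.57, PPP3CA, a calcineurin subunit, by -0.63 and -0.60, and STIM2, a calcium sensor, had -0.12 at 8 h (limma adjusted p = 0.152) and changed by -0.53 at 24 h. PPP3CC rose by 0.23 at 8 h, a call lost without either DMSO replicate or AU-15330 replicate 3 of that time, and changed by -0.46 at 24 h. Without DMSO replicate 1 or AU-15330 replicate 3 at 8 h, the 8 h count of rises was 3.

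Downstream of PRKCB, the NF-kappaB arm had 13 tested genes. At 8 h 4 rose and 3 fell, and at 24 h 3 rose and 4 fell, which is 53.8% at each time and near the 44.2% and 50.9% of all tested genes. BCL10 changed by -0.38 and -0.31 and MALT1 by -0.32 and -0.44, while REL, an NF-kappaB subunit, rose by 0.44 and 0.79. Without DMSO replicate 1 at 24 h, the 24 h counts were 1 rise and 3 falls.

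The RAS and MAP kinase arm, which PLCG2 products reach through RASGRP exchange factors, had 14 tested genes, with 4 rises and 4 falls at 8 h (57.1%, beside 44.2% of all tested genes) and 5 of each at 24 h (71.4%, beside 50.9%). RASGRP1 changed by -1.34 and -2.24 and RASGRP3 by -1.56 and -1.86. RASGRP2 changed by -0.26 and -1.13, and its 8 h call was lost without either DMSO replicate or without AU-15330 replicate 1 or 2 of that time.

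**Figure D4:**
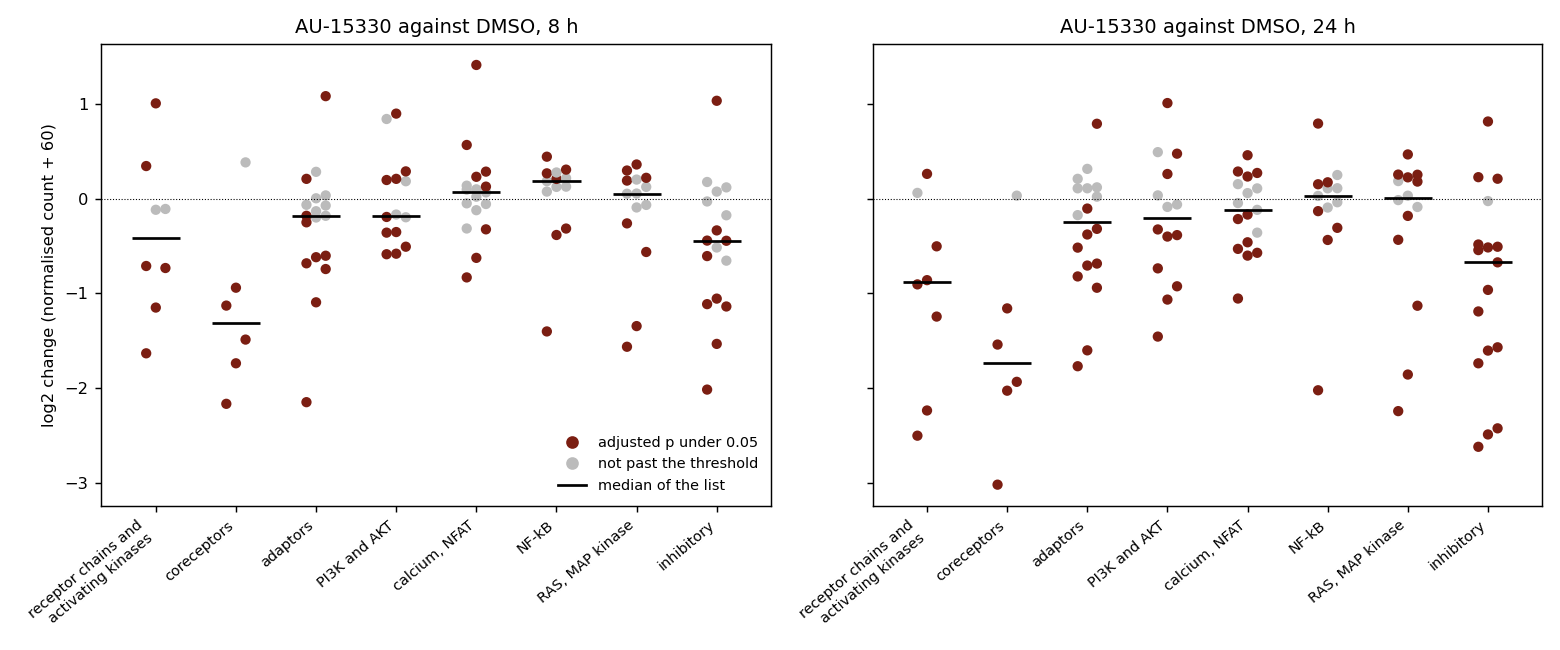
Log2 change under AU-15330 against DMSO (vertical axis) of each tested gene in 8 lists (horizontal axis) at 8 h and 24 h; dark points passed limma's test, grey points did not, and bars are list medians. The 8 genes have medians of -0.415 and -0.882, between those of the coreceptors (-1.31 and -1.74) and those of the adaptors (-0.182 and -0.247).

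Genes that restrain the receptor changed in both directions, more of them downwards. Of 23 inhibitory receptors and phosphatases 17 were tested, and 1 rose and 9 fell at 8 h (58.8% past the test, beside 44.2% of all tested genes) and 3 rose and 13 fell at 24 h (94.1%, beside 50.9%), with medians of -0.445 and -0.672. CBLB, a ubiquitin ligase chosen after its values were seen as the gene that rose at 8 h, had log2 changes of 1.03 and 0.81. PTPN6, the phosphatase SHP-1, changed by -0.44 at 8 h and -2.62 at 24 h, INPP5D, the lipid phosphatase SHIP-1, by -1.14 and -1.57, CD72 by -2.01 and -2.49 and SIGLEC10 by -1.11 and -1.60. INPP5D has 2 entries in the table. PTPN6 also rose in DMSO by 1.86 between 8 h and 24 h. Without AU-15330 replicate 3 or DMSO replicate 1 at 8 h, or DMSO replicate 3 at 24 h, 2 genes passed as higher at 8 h.

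Transcripts that receptor stimulation induces in B cells were read beside the members as an output of the pathway, although other stimuli induce them too. Of 14 listed, 13 were tested, and in DMSO 12 of these were higher at 24 h than at 8 h and none lower. That is 92.3%, beside 10.1% of all tested genes in either direction. The median log2 change was 1.97, beside 0.00546 for all tested genes. EGR3, an early response factor, had 19.11 normalised counts in DMSO at 8 h and 869.5 at 24 h, and CCL3, a chemokine with 3 entries, had 12.53 and 829.2. AU-15330 was followed by 5 rises and 2 falls at 8 h (53.8%, near the 44.2% of all tested genes). At 24 h it was followed by 2 rises and 10 falls (92.3%, beside 50.9%). The medians were 0.242 and -1.06. The 8 h count of rises was 3 without any of the 3 AU-15330 replicates or DMSO replicate 1 at 8 h.

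At 24 h EGR3 changed by -2.68 and CCL3 by -2.43 on the log2 scale, to means of 85.82 and 105.5 normalised counts. Neither passed at 8 h, with changes of 0.32 (limma adjusted p = 0.449) and 0.18 (limma adjusted p = 0.399). CD83 changed by -0.97 at both times and CD86 by -1.20 and -1.52. EGR2 was chosen after its values were seen, as a gene that passed at 8 h and not at 24 h. It rose by 2.10 at 8 h, from 88.33 to 574.1 normalised counts, and had 0.05 at 24 h (limma adjusted p = 0.779). Its effect at 24 h minus that at 8 h was -2.05 (limma adjusted p = 0.0201), of the same sign as for EGR3 (-3.00) and CCL3 (-2.61). With 8 h levels near the floor, the sign for EGR3 and CCL3 adds nothing to their falls at 24 h. The controls of the listed induced transcripts differed between the times far more than those of the 8 genes, whose median log2 change in DMSO was 0.0906.

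**Figure D5:**
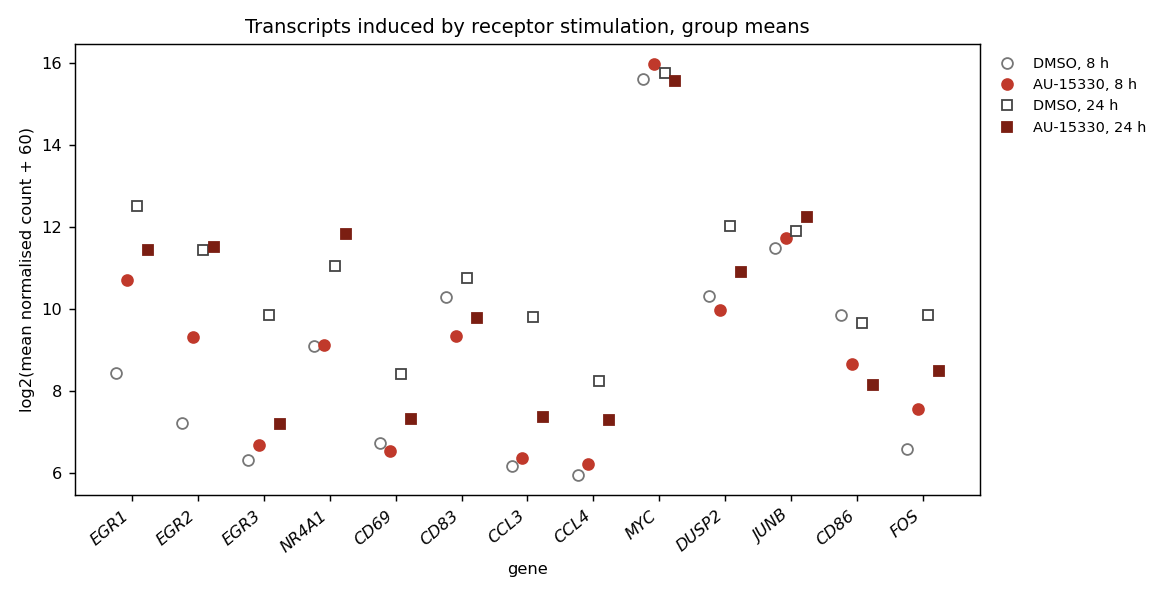
Group means as log2(mean normalised count + 60) (vertical axis) of 13 transcripts induced by receptor stimulation (horizontal axis); circles are 8 h, squares 24 h, open symbols DMSO and filled symbols AU-15330. For EGR3 and CCL3 the DMSO mean at 24 h (869.5 and 829.2 normalised counts) stands far above the other 3 groups.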

How the data were processed

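RNA of 12 labelled samples was sequenced on a NextSeq2000 after either of 2 TruSeq kits, per the labels' protocols, which do not say which kit made which library. The tools in the submitters' processing notes are kallisto 0.46.1, DESeq2 1.24.0, R 4.3.2 and Trimmomatic 0.40, with the build GRCh38.p13, and reads were checked in FastQC 0.11.9, per the labels' protocols. The deposited table holds log2 values named log CPM, but a lowest value of 10.36053 in every library and the spread at low levels fit a variance-stabilising transform of normalised counts. The planned design assumed log CPM. The transform was inverted to give normalised counts. Of the values not above 20 counts, 53.9% to 56.2% per library were then whole to within 0.02, so whole reads were not recovered and no count model was run. Of 12 value columns 2 share their name and every value. The duplicate, 1 column, was set aside, and whether the kept one is DMSO replicate 2 or 3 at 8 h is not settled. It is called replicate 2.

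The test covered 12722 of 20318 entries (62.6%), those reaching 1 CPM in 3 or more libraries. Limma 3.58.1 under R 4.3.3 fitted 1 mean per group over all 11 libraries on the deposited scale, with a trended prior and 7 residual degrees of freedom, and p-values were adjusted by Benjamini-Hochberg. Log2 changes and their errors are on log2(normalised count + 60), which understates changes of low genes. On the deposited scale a doubling is 0.163 at 100 normalised counts, 0.461 at 1000 and 0.852 at 10000. Ratios were tested by exact permutation within time.

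Coordinates of genes are from GENCODE release 29 and promoters from RefSeq. The members and lists were chosen with earlier results of these data known. Genes named beside the members are up to 4 per list with the smallest p at 24 h, relatives with at least 5 CPM in a group, and the 3 genes most like each member. PIK3R5, BMX and PRKCQ are not analysed here. Some genes that this rule would name are not reported here. Alternatives were other normalisations, filters, pseudocounts, priors, a replicate block and leaving out each library. Procedures were tested on simulated data. Tables were made in pandas 2.3.3 and NumPy 2.4.6 and plots in Matplotlib 3.10.9, under Python 3.11.15.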

Additional observations from a re-analysis of the deposited data

Results flagged for a closer look

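For 4 of the 8 genes the AU-15330 effect at 24 h differed from that at 8 h by limma's test of the difference itself. The log2 difference of effects, 24 h minus 8 h, was -1.13463 for CD79A, -0.602799 for CD79B, -1.35069 for BTK and -0.38531 for PLCG2. Time and labelled batch cannot be told apart in these differences.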

How the results depend on the processing

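No called result changed sign under any alternative, and the calls of the 8 genes at 24 h were the same under all 24 alternatives of each. The number of the 8 genes past the threshold with 1 library left out was 6 to 8 at 8 h, 7 to 7 at 24 h, 4 to 5 for the difference of effects and 1 to 3 for DMSO at 24 h against 8 h. For DMSO at 24 h against 8 h, 2 genes became 1 with quantile normalisation, log2(CPM + 1), log2(CPM + 5) or the replicate block, and 5 with the identical columns counted as 2 libraries; over all genes that setting gave 2404 calls in place of 1287, and leaving out 1 library gave 659 to 1354. The counts over all genes with 1 library left out were 4396 to 5700 at 8 h and 5774 to 6481 at 24 h. The lowest of these came without DMSO replicate 1 at 8 h and without DMSO replicate 3 at 24 h. For the difference of effects the counts were 1571 to 2414, the lowest without DMSO replicate 2 at 8 h. For that difference, lower calls were 886 with log2(CPM + 1) and 898 with log2(CPM + 5), in place of 1400. The identical columns counted as 2 also brought CD79A past the threshold at 8 h (adjusted p = 0.042) and PRKCB for the difference of effects (0.0299). A fit on log2(normalised count + 60) was added after seeing the data. Ratios with 1 library left out kept their calls, with 1.218 to 1.294 for CD79A to CD79B, -1.536 to -1.484 for BTK to PLCG2, -1.116 to -1.052 for SYK to BLNK, -0.9385 to -0.7482 for PLCG2 to PRKCB and -0.05423 to 0.001519 for LYN to SYK. The cause of these changes was not tested. PRKCB had the lowest level of the 8 genes, 393.2 to 1517 normalised counts, and the largest standard errors, and the part of depth in them was not tested.

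Replicate numbers were checked for pairing. The deviations of same-numbered AU-15330 and DMSO libraries correlated at -0.0253 and -0.0349 at 8 h and at 0.0406, 0.0303 and 0.0447 at 24 h. With 2 DMSO libraries at 8 h the control deviations mirror each other, and the number of 1 of them is not settled. The 8 h values therefore cannot decide whether samples were paired. At 24 h each AU-15330 library correlated best with the control of its own number, a hint from the data. With the number as a block the calls were 5438 at 8 h, 6454 at 24 h, 2113 for the difference of effects and 1082 for DMSO over time, in place of 5628, 6477, 2359 and 1287, and PRKCB passed for the difference of effects (adjusted p = 0.0439).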
